A study of Mus musculus with 2 samples.

Results

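Antigen presentation through the major histocompatibility complex (MHC) was described in 48 of the 54532 genes of the table. The members are every gene whose symbol starts with H2-, apart from symbols with -ps, together with B2m, Cd74, Ciita, Tap1, Tap2, Tapbp and Nlrc5. Of these, 29 belong to class I and 11 to class II. The other 8 encode no MHC chain, since GENCODE release M21 types 7 of them as pseudogenes and H2-Ke6 encodes a hydroxysteroid dehydrogenase.

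Messenger RNA of interscapular brown adipose tissue from C57BL/6J mice aged 1 month was sequenced. Brown fat burns fuel to make heat, and its adipocytes sit among blood vessels, stroma and immune cells. The rheb BAD KO library came from mice with 2 floxed Rheb alleles and a Cre recombinase under the Ucp1 promoter, which is active in brown adipocytes. The control library came from littermates that carry the floxed alleles too, as the series title gives them (rheb FL/FL). Each library held the pooled tissue of 3 mice, so each group is 1 library and no difference has a replicate check. Rheb is the small GTPase that switches on the kinase complex mTORC1, and the mice lack it by design in brown adipocytes, not in immune or vascular cells of the depot.

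Class I molecules pair a heavy chain with beta-2 microglobulin (B2m) and show peptides from inside the cell to CD8 T cells. The transporter of Tap1 and Tap2 brings these peptides into the endoplasmic reticulum, where tapasin (Tapbp) helps to load them. Nearly all nucleated cells carry class I. Class II molecules pair an alpha with a beta chain, travel with the invariant chain (Cd74), exchange their peptide with the help of H2-DM, and show it to CD4 T cells. They are typical of dendritic cells, macrophages and B cells, and adipocytes have been reported to carry them as well. Ciita is the transcriptional coactivator of class II genes and Nlrc5 its relative for class I.

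The rheb BAD KO library held 23699316 counts and the control library 21855229. Rheb itself had 25.1 CPM (counts relative to a library total scaled between the libraries) in the rheb BAD KO library and 45.3 CPM in the control library, 1.81-fold lower, over all cells of the tissue. Both libraries are labelled male, but Xist had 4 counts in the rheb BAD KO library and 7452 in the control library, and the Y-linked Ddx3y had 1484 counts in the rheb BAD KO library and 0 in the control library. The genotype and this difference in sex-linked transcripts cannot be told apart in any value below. The tissue label fitted its markers, with Ucp1 at 2887 CPM in the rheb BAD KO library and 2211 CPM in the control library and none of the 11 brown adipocyte markers at 0 in either. The 9 skeletal muscle markers summed to 265 CPM in the rheb BAD KO library and 2627 CPM in the control library. In a tissue sample, fewer cells of a type and less RNA per cell cannot be told apart.

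Class II transcripts were lower in the rheb BAD KO library, while the classical class I heavy chains differed little and several nonclassical ones were lower. The 11 class II members summed to 69.6 CPM in the rheb BAD KO library and 138 CPM in the control library, 1.98-fold lower (95% counting interval 1.86 to 2.10). The 29 class I members summed to 1189 CPM in the rheb BAD KO library and 1482 CPM in the control library, 1.25-fold lower (1.23 to 1.27). Class I counts outnumbered class II counts 17.1 to 1 in the rheb BAD KO library and 10.8 to 1 in the control library. That ratio, which needs no scaling between libraries, was 1.59 times higher in the rheb BAD KO library (1.49 to 1.69). The intervals cover counting error only, since the spread between mice cannot be measured here.

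A member was called higher or lower where its ratio reached 1.5-fold on the log2 scale with a pseudocount of 0.5 CPM and its counting interval excluded 1. Genes were counted where their mean over both libraries reached 1 CPM, which left 7 of 11 class II and 16 of 29 class I members. In class II, 4 of the 7 were lower, 1 was higher and 2 lay in between. In class I, 5 of the 16 were lower, 1 was higher and 10 lay in between. Over all 12973 genes with such a level, 21.9% were lower and 21.9% were higher. At 2-fold, 1 class II member (H2-Aa) and 4 class I members (H2-Q6, H2-Q7, H2-Q10 and H2-T24) were lower and none was higher, against 9.97% lower and 9.26% higher over all genes. The median log2 ratio was -0.83 for class II, -0.21 for class I and -0.00 for all genes.

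**Figure D1:**
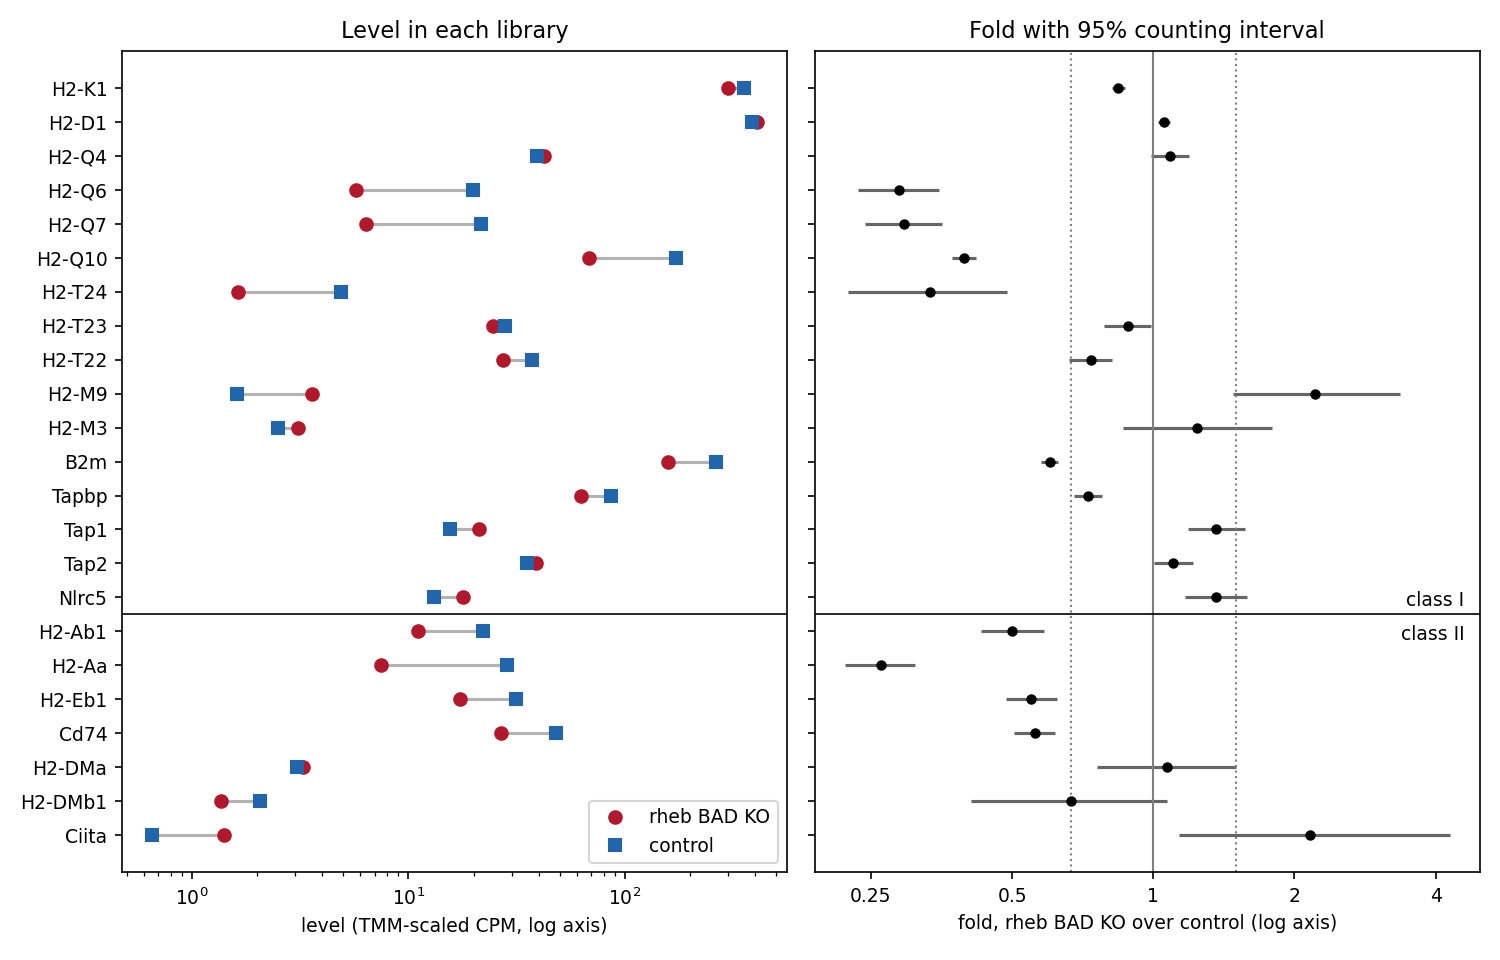
The left panel plots the level of the 23 class I and class II members with a mean of at least 1 CPM in the rheb BAD KO library (red circles) and the control library (blue squares), as scaled CPM on a log axis. The right panel plots the fold of rheb BAD KO over control with its 95% counting interval, with dotted lines at 1.5-fold either way. H2-Aa, H2-Ab1, H2-Eb1 and Cd74 of class II lie left of the lower line, and so do B2m, H2-Q6, H2-Q7, H2-Q10 and H2-T24 of class I. H2-K1 and H2-D1 lie near 1.

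The classical class II chains were all lower where they could be measured. H2-Aa, the alpha chain of the I-A molecule (ENSMUSG00000036594, chromosome 17, 34282744 to 34287827, minus strand, mm10), had 169 counts (7.46 CPM) in the rheb BAD KO library and 651 counts (28.5 CPM) in the control library. It was 3.81-fold lower (3.22 to 4.54), the largest decrease among the 23 measured members of both classes. H2-Ab1, the beta chain of I-A (chromosome 17, 34263209 to 34269418, plus strand), had 252 counts (11.1 CPM) in the rheb BAD KO library and 508 counts (22.2 CPM) in the control library and was 2.00-fold lower (1.71 to 2.33). H2-Eb1, the beta chain of I-E (chromosome 17, 34305877 to 34316199, plus strand), had 391 counts (17.3 CPM) in the rheb BAD KO library and 718 counts (31.4 CPM) in the control library, 1.82-fold lower (1.61 to 2.06). H2-Eb2 had 0 counts in the rheb BAD KO library and 1 in the control library. No count lay on H2-Ea-ps, the alpha chain gene of I-E that is a pseudogene in this strain and is not a member.

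The chains of the I-A pair did not move by the same amount. H2-Aa had 0.671 counts per count of H2-Ab1 in the rheb BAD KO library and 1.28 in the control library, a ratio of ratios of 0.523 (0.414 to 0.661). Per kilobase of exon the alpha chain stood at 0.586 of the beta chain in the rheb BAD KO library and at 1.12 of it in the control library, so the order of the pair differed between the libraries. H2-Eb1 per H2-Ab1 was 1.55 in the rheb BAD KO library and 1.41 in the control library, and its ratio of ratios of 1.10 had an interval that includes 1 (0.899 to 1.34). These pairs were chosen after their values were seen. Nearly no sequence of these genes is shared, with 0.630% of 50-base windows of the longest H2-Aa transcript found in another gene's transcripts and none for H2-Ab1 and H2-Eb1.

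Of the chaperones of class II, the invariant chain moved with the chains and the peptide exchange genes less clearly. Cd74 (ENSMUSG00000024610, chromosome 18, 60803848 to 60812646, plus strand) had 608 counts (26.8 CPM) in the rheb BAD KO library and 1099 counts (48.1 CPM) in the control library, 1.79-fold lower (1.62 to 1.98). Cd74 made up 38.6% of class II counts in the rheb BAD KO library and 34.9% in the control library. H2-DMa, the alpha chain of the exchange factor H2-DM, had 74 counts in rheb BAD KO and 70 in control, a fold of 1.07 whose interval includes 1 (0.760 to 1.502). H2-DMb1, a beta chain of H2-DM, had 31 counts in rheb BAD KO and 47 in control, a fold of 0.666 (0.409 to 1.07). H2-DMb1 shares 27.2% of its windows with H2-DMb2, so reads of this pair may be split between them. H2-DMb2 had 8 counts in the rheb BAD KO library and 15 in the control library. H2-Oa and H2-Ob encode H2-O, which restrains H2-DM. H2-Oa had 0 counts in the rheb BAD KO library and 5 in the control library, and H2-Ob had 11 in rheb BAD KO and 20 in control. At these depths a count of 0 allows up to 0.132 CPM in the rheb BAD KO library and 0.131 CPM in the control library. The 3 classical chains had 7.19 counts per count of H2-DM in the rheb BAD KO library and 14.2 in the control library, a ratio of ratios of 0.505 (0.385 to 0.665).

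Ciita went the other way from the genes it is known to activate. It had 32 counts (1.41 CPM) in the rheb BAD KO library and 15 counts (0.656 CPM) in the control library, a fold of 2.15 (1.13 to 4.28). This is the single class II member called higher. It passed the filter through its level in the rheb BAD KO library, and with a pseudocount of 2 its log2 ratio of 0.36 no longer reached the threshold. On 3.45% of its exon bases Ciita overlaps Dexi on the other strand, which had 250 counts in the rheb BAD KO library and 309 in the control library, and the library kit does not mark strand.

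**Figure D2:**
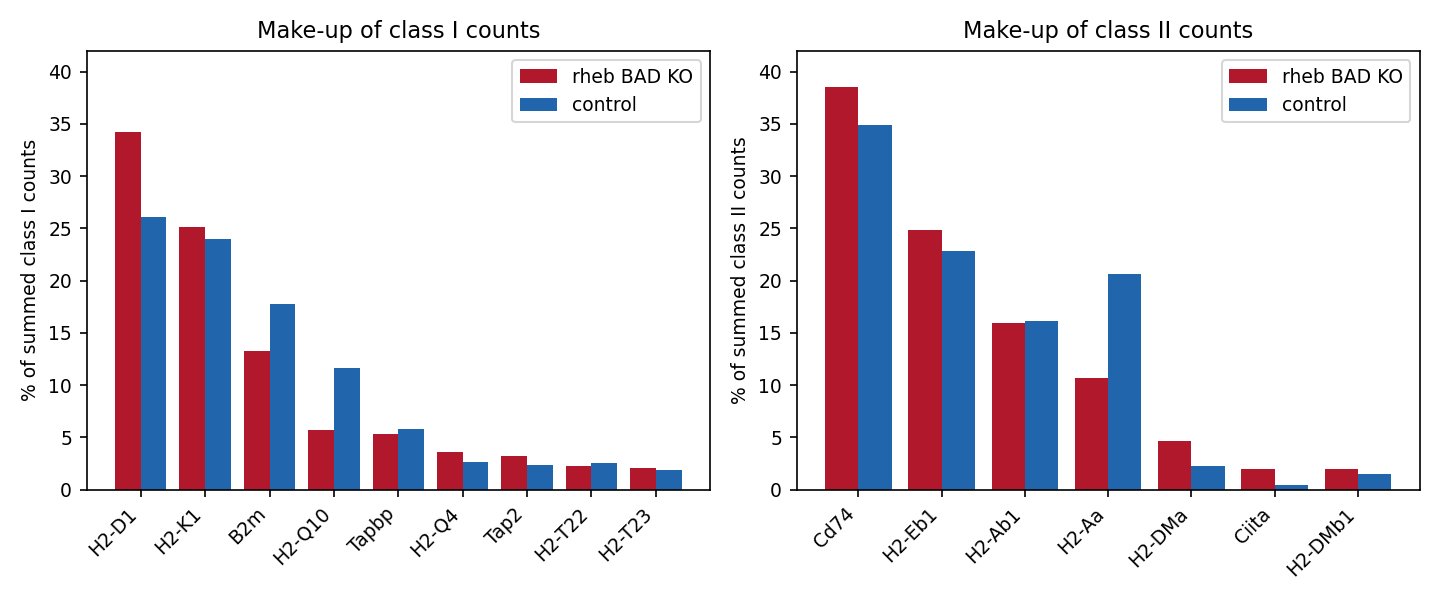
Bars give the share of each named member in the summed counts of class I (left) and class II (right), in the rheb BAD KO library (red) and the control library (blue). H2-Aa took 10.7% of class II counts in the rheb BAD KO library and 20.7% in the control library, and H2-Q10 took 5.72% of class I counts in the rheb BAD KO library and 11.6% in the control library.

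The classical class I heavy chains had the most counts of all members and differed little between the libraries. H2-D1 (ENSMUSG00000073411, chromosome 17, 35262730 to 35267499, plus strand) had 9226 counts (407 CPM) in the rheb BAD KO library and 8832 counts (386 CPM) in the control library, a fold of 1.06 (1.02 to 1.09). With plain total counts as the scale its log2 ratio was -0.05 instead of 0.08, so its direction rests on the scaling. H2-K1 (ENSMUSG00000061232, chromosome 17, 33996017 to 34000333, minus strand) had 6767 counts (299 CPM) in rheb BAD KO and 8117 counts (355 CPM) in control, a fold of 0.842 (0.815 to 0.870). Both lay in between by the size rule. H2-K1 per H2-D1 was 0.733 in the rheb BAD KO library and 0.919 in the control library, a ratio of ratios of 0.798 (0.764 to 0.834). Of their 50-base windows 8.11% (H2-K1, most of them in H2-D1) and 14.3% (H2-D1, most of them in H2-Q1) occur in other genes, and reads that lie within those windows cannot be placed by their letters.

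The light chain was lower. B2m (ENSMUSG00000060802, chromosome 2, 122147686 to 122153083, plus strand) had 3581 counts (158 CPM) in the rheb BAD KO library and 6007 counts (263 CPM) in the control library, 1.66-fold lower (1.59 to 1.73). None of its windows is shared with another gene. H2-K1 and H2-D1 together had 4.47 counts per count of B2m in the rheb BAD KO library and 2.82 in the control library, 1.58 times higher (1.51 to 1.66). Per kilobase of exon B2m stood at 184 CPM in the rheb BAD KO library and 305 CPM in the control library, above both chains. H2-D1 stood at 158 CPM per kilobase in the rheb BAD KO library and 150 in the control library, and H2-K1 at 115 in the rheb BAD KO library and 136 in the control library.

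Of the genes for peptide transport and loading, Tap1 and Tap2 did not follow B2m, and Tapbp was lower but by less than B2m. Tap1 had 482 counts (21.3 CPM) in the rheb BAD KO library and 357 counts (15.6 CPM) in the control library, a fold of 1.36 (1.19 to 1.57). Tap2 had 879 counts (38.8 CPM) in rheb BAD KO and 804 counts (35.2 CPM) in control, a fold of 1.10 (1.00 to 1.22). Tapbp had 1424 counts (62.9 CPM) in rheb BAD KO and 1977 counts (86.4 CPM) in control, a fold of 0.727 (0.679 to 0.779). All of them lay in between by the size rule, and Tapbp was called lower with total counts as the scale, at a log2 ratio of -0.59. Nlrc5, the class I coactivator, had 404 counts (17.8 CPM) in the rheb BAD KO library and 300 counts (13.1 CPM) in the control library, a fold of 1.36 (1.17 to 1.58), also in between. Both coactivators thus had point estimates above 1, and only Ciita reached the threshold.

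Of the 4 measured nonclassical chains of the Q region, 3 were lower and 1 lay in between, beside 21.9% each way over all genes. The 6 Q genes of class I summed to 123 CPM in the rheb BAD KO library and 253 CPM in the control library, 2.06-fold lower (1.97 to 2.16). H2-Q10, which encodes a secreted class I molecule known from liver (ENSMUSG00000067235, chromosome 17, 35470089 to 35474563, plus strand), had 1540 counts (68.0 CPM) in the rheb BAD KO library and 3937 counts (172 CPM) in the control library. It was 2.53-fold lower (2.39 to 2.69), and it took 5.72% of class I counts in the rheb BAD KO library and 11.6% in the control library. H2-Q6 and H2-Q7 encode forms of the Qa-2 antigen, which can be held in the membrane by a lipid anchor. H2-Q6 (chromosome 17, 35424850 to 35430055, plus strand) had 130 counts in the rheb BAD KO library and 457 in the control library, 3.48-fold lower (2.86 to 4.26). H2-Q7 (chromosome 17, 35439155 to 35443773, plus strand) had 145 counts in rheb BAD KO and 497 in control, 3.39-fold lower (2.82 to 4.11). The nearby H2-Q4 had 963 counts in the rheb BAD KO library and 896 in the control library, a fold of 1.09 with an interval that includes 1 (0.990 to 1.19), and its log2 ratio was -0.01 with total counts as the scale. Reads of the Q genes are hard to place, because 35.0% of H2-Q6 windows, 28.5% of H2-Q7 windows and 19.7% of H2-Q10 windows occur in other genes. H2-Q6, H2-Q7 and H2-Q10 are therefore uncertain as single genes. For H2-Q4 36.9% of windows occur in other genes. Gm11131, which overlaps H2-Q4 on the other strand, holds 15.6% of its windows. H2-Q5, typed as a pseudogene, shares 35.4% of its windows, H2-Q7 foremost, and had 26 counts in rheb BAD KO and 114 in control. H2-Q1 had 6 counts in rheb BAD KO and 4 in control and H2-Q2 none in either library.

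Among the measured chains of the T and M regions 1 was called lower and 1 higher, and the others lay in between. The share over all genes was 21.9% each way. H2-T24 had 37 counts in the rheb BAD KO library and 112 in the control library, 3.00-fold lower (2.05 to 4.47). H2-T23, which encodes Qa-1, a ligand of inhibitory and activating receptors on natural killer cells, had 556 counts in rheb BAD KO and 637 in control, a fold of 0.882 (0.785 to 0.989). H2-T22, a ligand of some gamma delta T cells, had 622 counts in rheb BAD KO and 854 in control, a fold of 0.736 (0.662 to 0.817), with 58.5% of its windows shared with other genes, H2-T10 foremost. H2-M9 was the single class I member called higher, with 81 counts in the rheb BAD KO library and 37 in the control library, a fold of 2.21 (1.48 to 3.36). H2-M3, which presents formylated peptides of bacteria and mitochondria, had 70 counts in rheb BAD KO and 57 in control, a fold of 1.24 whose interval includes 1 (0.862 to 1.79). The other class I members had at most 12 counts in either library. H2-M11 had 12 in rheb BAD KO and 4 in control, H2-M5 had 8 in rheb BAD KO and 5 in control, H2-T3 had 2 in rheb BAD KO and 0 in control, and H2-M10.2 and H2-M2 each had 0 counts in rheb BAD KO and 1 in control. H2-Q2, H2-M1 and 5 further H2-M10 genes were at 0 in both libraries.

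Among the 8 members of neither class, H2-Ke6 had 67 counts in the rheb BAD KO library and 16 in the control library, a fold of 4.23 (2.42 to 7.82). It shares 85.4% of its exon bases with Gm20427 on the same strand, which makes its level uncertain. The pseudogene H2-K2 had 217 counts in rheb BAD KO and 167 in control and H2-T10 had 22 in rheb BAD KO and 41 in control. H2-Pa, H2-Pb, H2-Q3 and H2-Bl were at 0 in both libraries. Of the symbols with -ps, which are no members, H2-T-ps had 7 counts in the rheb BAD KO library and 0 in the control library, and H2-M6-ps had 0 in rheb BAD KO and 8 in control.

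The stretch before the start site is shown for chains that moved by different amounts, since MHC promoters are known to carry a CCAAT-type Y box that binds the factor NF-Y, next to which the complex that recruits Ciita or Nlrc5 assembles. The sequences are the 250 bases before the RefSeq start (GRCm38.p6), 5′ to 3′ on the gene's strand. Capitals mark the letters ATTGG or their reverse complement, the core of the CCAAT box, and the interferon-stimulated response element, searched as GAAA, any 2 bases and GAAA, on either strand. H2-K1 is shown for 1 of its RefSeq starts.
H2-Aa, chr17:34287824-34288073, minus strand: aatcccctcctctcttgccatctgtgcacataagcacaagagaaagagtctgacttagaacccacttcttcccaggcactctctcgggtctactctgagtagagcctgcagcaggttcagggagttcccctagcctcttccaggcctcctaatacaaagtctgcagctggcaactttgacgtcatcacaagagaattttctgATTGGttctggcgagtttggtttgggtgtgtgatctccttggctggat
H2-Eb1, chr17:34305617-34305866, plus strand: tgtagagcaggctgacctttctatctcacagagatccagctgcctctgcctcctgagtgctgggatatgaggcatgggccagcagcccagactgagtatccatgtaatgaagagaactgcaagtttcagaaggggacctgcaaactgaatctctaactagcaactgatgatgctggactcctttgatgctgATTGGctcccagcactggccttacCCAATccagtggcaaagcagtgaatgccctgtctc
B2m, chr2:122147437-122147686, plus strand: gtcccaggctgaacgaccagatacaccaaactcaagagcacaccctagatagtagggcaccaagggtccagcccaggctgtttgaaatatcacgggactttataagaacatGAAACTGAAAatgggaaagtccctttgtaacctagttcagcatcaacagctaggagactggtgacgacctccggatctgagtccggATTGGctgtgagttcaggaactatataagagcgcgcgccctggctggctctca
H2-K1, chr17:34000334-34000583, minus strand: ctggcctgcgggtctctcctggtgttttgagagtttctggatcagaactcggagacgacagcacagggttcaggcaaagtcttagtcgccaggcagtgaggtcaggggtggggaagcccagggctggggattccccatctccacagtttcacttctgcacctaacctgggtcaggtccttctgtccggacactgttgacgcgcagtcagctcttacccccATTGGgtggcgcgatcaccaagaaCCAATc
H2-D1, chr17:35262844-35263093, plus strand: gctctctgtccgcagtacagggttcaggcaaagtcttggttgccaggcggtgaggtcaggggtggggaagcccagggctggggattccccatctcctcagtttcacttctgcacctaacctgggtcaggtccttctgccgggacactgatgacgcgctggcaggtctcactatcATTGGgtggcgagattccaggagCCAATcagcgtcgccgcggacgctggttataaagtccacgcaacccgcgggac
H2-Q6, chr17:35424600-35424849, plus strand: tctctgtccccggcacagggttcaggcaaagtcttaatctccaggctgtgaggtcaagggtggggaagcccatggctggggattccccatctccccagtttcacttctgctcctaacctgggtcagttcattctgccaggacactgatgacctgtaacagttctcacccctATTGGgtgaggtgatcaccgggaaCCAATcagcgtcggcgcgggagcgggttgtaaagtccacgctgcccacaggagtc
H2-Q10, chr17:35469839-35470088, plus strand: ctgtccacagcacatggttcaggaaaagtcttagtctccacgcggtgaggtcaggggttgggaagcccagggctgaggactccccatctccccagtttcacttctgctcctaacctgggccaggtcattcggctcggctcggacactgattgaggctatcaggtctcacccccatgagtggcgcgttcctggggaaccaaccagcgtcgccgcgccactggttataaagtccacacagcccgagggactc

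Among the 34 members with a promoter in the RefSeq table, matches to the CCAAT core were common in both classes. ATTGG on either strand was found in 22 of 25 class I members and in 8 of 8 class II members, against 37.5% of all 27025 genes of the table, with a gene counted where any of its starts held the letters. H2-DMa counts through a stretch that ends at position 34125517, away from its gene start at 34135182. Members at 0 counts in both libraries, such as H2-M10.1, are included. The longer Y box CTGATTGG was found in 13 of 25 class I members and 4 of 8 class II members, against 4.43% of all genes, and it overlaps the core. The exact letters searched for the interferon-stimulated response element stood before 3 of 25 class I and none of 8 class II members. B2m is among those 3, and the share over all genes was 3.46%. Variants of these letters were not searched, so a stretch without a match may still hold the element. TGANGNNA, a loose form of the X2 box, was found in 16 of 25 class I and 6 of 8 class II members, against 45.7% of all genes. H2-Q10 held no ATTGG, whereas H2-Q6, 79.0% identical to it over the aligned stretch, held it in both orientations. Both genes were lower in the rheb BAD KO library, and H2-D1, which holds the core in both orientations too, was not. These genes were chosen after their values were seen, and a link between matches and ratios was not tested. A match to letters is no measure of binding.

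The neighbours of the H2- genes on chromosome 17 were counted by the same rule. Between the first and last H2- gene, 78 genes that are no members had a mean of at least 1 CPM. The rheb BAD KO library was higher for 23 of them and lower for 9, and 46 lay in between, beside 21.9% each way over all genes. Their median log2 ratio was 0.21. From H2-K1 to H2-Eb2, a stretch of 344 kb that holds the class II genes, 3 of 9 measured members were lower and 1 was higher, with a median of -0.25. The higher one was H2-Ke6, which encodes no MHC chain and passed the filter through its level in the rheb BAD KO library. The 7 other measured genes of that stretch gave 1 higher and none lower, with a median of 0.38. From H2-D1 to H2-Q10, a stretch of 212 kb, 4 of 6 measured members were lower, with a median of -1.51, and no other gene there reached 1 CPM.

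**Figure D3:**
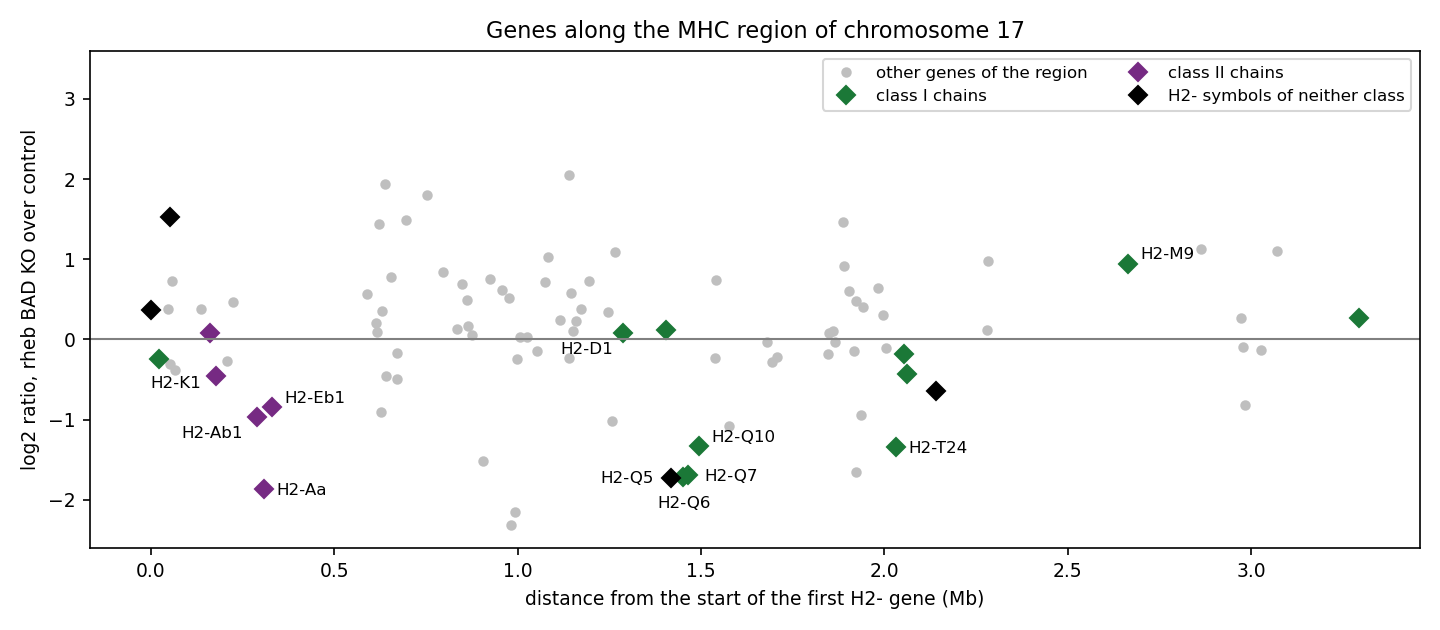
Each point is a gene of the MHC region on chromosome 17 with a mean of at least 1 CPM, placed by its distance from the start of the first H2- gene (Mb) and its log2 ratio of rheb BAD KO over control. Diamonds are H2- genes (green class I, purple class II, black neither class) and grey circles are the other 78 genes, which scatter on both sides of 0 around the low diamonds of H2-Aa and of H2-Q5, H2-Q6 and H2-Q7.

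Of 16 genes of the proteasome, its activators, and the peptide trimming and folding machinery, 5 were lower and 1 was higher, which left 10 in between, beside 21.9% each way over all genes. The median of their log2 ratios was -0.29. Psmb7, a catalytic subunit of the standard proteasome, had 524 counts (23.1 CPM) in the rheb BAD KO library and 2026 counts (88.6 CPM) in the control library, 3.83-fold lower. Psmb10, which replaces it in the immunoproteasome, had 897 counts (39.6 CPM) in rheb BAD KO and 580 counts (25.4 CPM) in control, a fold of 1.56 (1.41 to 1.74). With total counts as the scale, Psmb10 was not called. The other immunoproteasome subunits lay in between, with Psmb8 at a fold of 1.40 (1.19 to 1.63) and Psmb9 at 0.820 (0.675 to 0.995). Tapbpl, a peptide editor related to tapasin, was 2.21-fold lower and Psme3, a nuclear proteasome activator, 1.73-fold lower.

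Of 10 listed endosomal genes of the class II route 9 were measured, with 3 lower, 1 higher and 5 in between, beside 21.9% each way over all genes. Their median was -0.28. Ctss, cathepsin S, the protease that trims the invariant chain in dendritic cells and B cells, had 151 counts (6.67 CPM) in the rheb BAD KO library and 67 counts (2.93 CPM) in the control library, a fold of 2.28 (1.70 to 3.08). Ctsb, cathepsin B, was 3.70-fold lower, with 298 CPM in the rheb BAD KO library and 1104 CPM in the control library, and Ctsd, cathepsin D, was 1.80-fold lower. March8, a membrane-bound ubiquitin ligase related to the one that removes class II from the surface of dendritic cells, had 275 counts in rheb BAD KO and 574 in control and was 2.07-fold lower. That related gene, March1, had 15 counts in rheb BAD KO and 7 in control, below the filter. Ifi30, the thiol reductase of the route, lay in between with 411 counts in rheb BAD KO and 433 in control.

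Of 22 genes for the transcription of MHC genes and interferon signalling, 20 were measured, with 4 higher, 2 lower and 14 in between, beside 21.9% each way over all genes. Their median was 0.23, and with total counts as the scale it was 0.11, with 3 higher and 3 lower. Stat2, a factor of type I interferon signalling, had 1505 counts (66.5 CPM) in the rheb BAD KO library and 591 counts (25.8 CPM) in the control library, a fold of 2.57 (2.34 to 2.83). Nfya, a subunit of NF-Y, had 728 counts in rheb BAD KO and 326 in control, a fold of 2.26 (1.98 to 2.58), and Irf8, a factor of dendritic cells and macrophages, had 112 counts in rheb BAD KO and 55 in control, a fold of 2.06 (1.48 to 2.89). Ifngr2, a receptor chain of interferon gamma signalling, had 123 counts in rheb BAD KO and 227 in control and was 1.83-fold lower. The kinase Jak2 of the same route, chosen after its values were seen, had 593 in rheb BAD KO and 386 in control, a fold of 1.55 (1.36 to 1.77). The Rfx factors that bind the X box lay in between, with folds of 0.687 for Rfx5, 1.19 for Rfxank and 0.968 for Rfxap.

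Of 13 genes of co-stimulation, T cell coreceptors and nonclassical presentation, 7 were measured, with 2 higher, 1 lower and 4 in between, beside 21.9% each way over all genes. Their median was 0.09, and it turned to -0.04 with total counts as the scale. Cd86 had 48 counts in the rheb BAD KO library and 20 in the control library, a fold of 2.42 (1.41 to 4.31), and passed the filter through its level in the rheb BAD KO library. Cd40 had 44 in rheb BAD KO and 25 in control, a fold of 1.78 (1.06 to 3.03). Mr1, which presents vitamin metabolites, had 52 counts in rheb BAD KO and 93 in control and was 1.77-fold lower. Cd1d1, which presents lipids to natural killer T cells and resembles class I, had 1714 counts in rheb BAD KO and 2441 in control, a fold of 0.709 (0.666 to 0.755), in between.

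Marker genes of cells that carry class II went in both directions between the libraries. The 12 macrophage markers summed to 211 CPM in the rheb BAD KO library and 115 CPM in the control library, a fold of 1.84 (1.75 to 1.93). None was at 0, and 8 were higher and none lower, beside 21.9% each way over all genes. Of those 8, Aif1 passed the filter through its level in the rheb BAD KO library, with 1.85 CPM there and 0.918 CPM in control. The 10 dendritic cell markers summed to 59.9 CPM in the rheb BAD KO library and 50.1 CPM in the control library, a fold of 1.20 (1.10 to 1.30), with none at 0. Without Clec10a, a choice made after the values were seen, they summed to 44.3 CPM in the rheb BAD KO library and 45.9 CPM in the control library. That is a fold of 0.966 whose interval includes 1 (0.885 to 1.05), with Naaa, the only marker called lower, still in the sum. Most of that sum is the single gene Zbtb46, with 34.7 CPM in rheb BAD KO and 32.8 CPM in control, so it says little about the other markers. Of the 5 dendritic cell markers that passed the filter, Clec10a, which macrophages carry too, was higher with 353 counts in rheb BAD KO and 96 in control. Clec9a was higher with 51 counts in rheb BAD KO and 25 in control, and Naaa was lower with 79 in rheb BAD KO and 221 in control. Of the defining genes of dendritic cells, Flt3 had 7 counts in rheb BAD KO and 1 in control, and Xcr1 had 1 in each library. The 4 monocyte markers summed to 12.0 CPM in rheb BAD KO and 6.82 CPM in control. Without Chil3, which had 134 counts in rheb BAD KO and 32 in control, they summed to 6.05 CPM in rheb BAD KO and 5.42 CPM in control, and Ly6c2 among them was lower with 31 counts in rheb BAD KO and 53 in control. The 7 neutrophil markers summed to 52.1 CPM in rheb BAD KO and 6.08 CPM in control.

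B cell markers split by kind. The antibody genes Igkc, Ighm, Ighd and Jchain summed to 3176 counts in the rheb BAD KO library and 771 in the control library, a fold of 4.16 (3.84 to 4.51). Within that group Igkc had 1333 counts in rheb BAD KO and 183 in control, Ighm 1660 in rheb BAD KO and 505 in control, and Jchain 182 in rheb BAD KO and 65 in control. Ighd, which marks naive B cells, had 1 count in rheb BAD KO and 18 in control. Markers of the B cell itself were sparse. Cd79a, a part of the B cell receptor, had 11 counts in rheb BAD KO and 23 in control, Ms4a1 had 2 in rheb BAD KO and 10 in control, and Cd22 had 1 in rheb BAD KO and 11 in control. Pax5, the factor that sets B cell identity, had 0 counts in rheb BAD KO and 5 in control. This split was made after the values were seen. None of these 4 genes reached a mean of 1 CPM. The 10 T and NK cell markers summed to 57 counts in rheb BAD KO and 100 in control, with 5 at 0 in the rheb BAD KO library and none in the control library. No marker of this list reached a mean of 1 CPM. Gzma, Nkg7 and Ncr1 had 0, 3 and 0 counts in rheb BAD KO and 15, 14 and 7 in control. Trbc2, Cd3d and Trac went the other way, with 18, 8 and 14 counts in rheb BAD KO and 13, 6 and 13 in control. The 6 endothelial markers summed to 480 CPM in rheb BAD KO and 534 CPM in control, a fold of 0.900, and lymph node stroma markers to 45 counts in rheb BAD KO and 16 in control. The part of these cells, and of the muscle transcripts and sex-linked genes that also differed, in the MHC values was not tested.

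**Figure D4:**
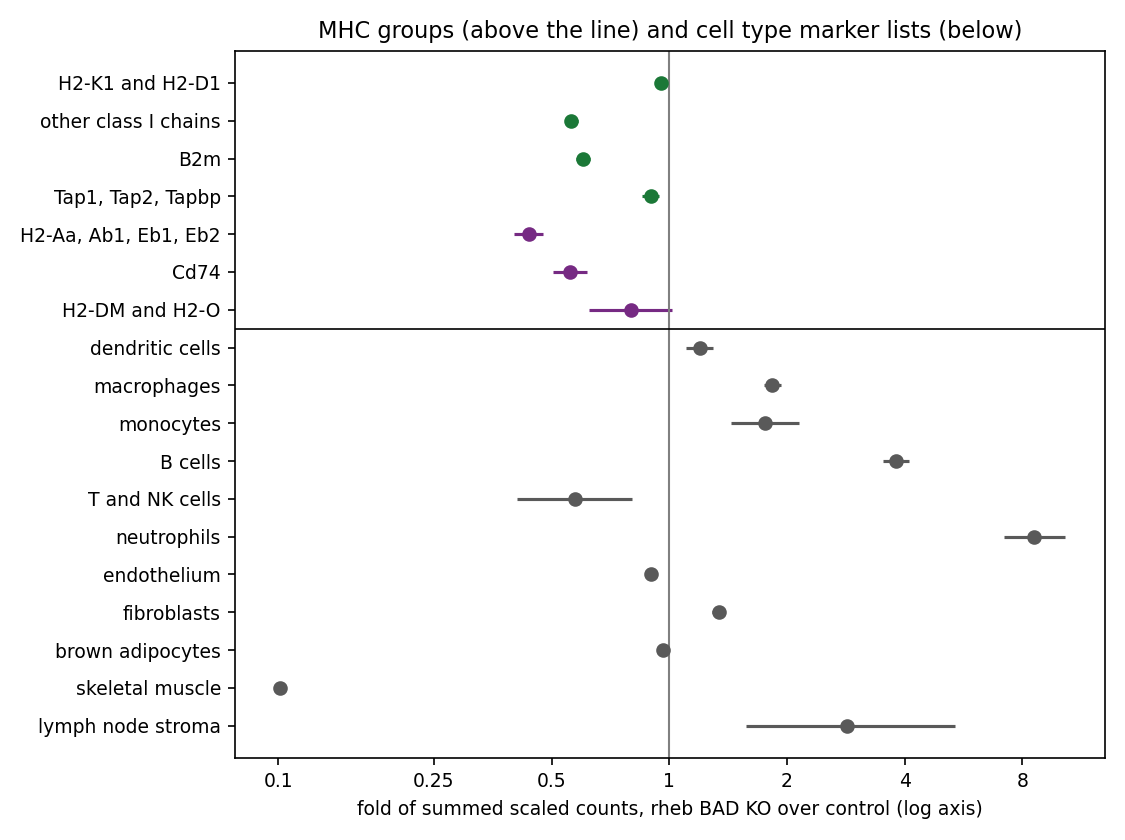
Points give the fold of summed scaled counts, rheb BAD KO over control, with the 95% counting interval on a log axis, for groups of MHC genes (green class I, purple class II) and for marker lists of other cell types (grey). The classical class II chains lie at 0.437, Cd74 at 0.559 and B2m at 0.602. Macrophage markers lie at 1.84 and the classical class I chains at 0.953, and the other class I chains lie lower than the classical ones.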

How the data were processed

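The deposited values used here are raw counts of each gene in each of the 2 libraries. Trimmomatic, HISAT2, featureCounts and the mm10 build are named in the submitters' processing notes. Not given in the sources used here are tool versions, the annotation release and how multiply mapped reads were counted, which bears on near-identical H2- genes. Per the labels' protocols, libraries were made with a TruSeq v2 kit. Other values of the deposited table, such as exon length in bases, are per the file headers. Gene types and transcripts came from GENCODE M21 (GRCm38) and promoters from RefSeq (GRCm38.p6), which matched 34 of 48 members; members with no promoter there were not used. The 27 symbols that had turned into dates were read by gene identifier.

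Counts were scaled to CPM with TMM factors (edgeR 4.0.16). Log2 ratios are rheb BAD KO over control of CPM plus 0.5. Folds are ratios of scaled counts with exact binomial (Clopper-Pearson) 95% intervals, and ratios of 2 ratios have exact conditional intervals. No test was possible with 1 library per group. Named are all members with a mean of at least 10 CPM, Ciita and Nlrc5, other members by counts, and up to 4 genes of each pathway list by size of the log2 ratio; other genes were named after their values were seen. Members, lists and rules were chosen with earlier results of these data known. Shared windows are runs of 50 bases of a member's longest transcript found exactly in another gene. The rule was tested on simulated counts. Alternatives were scaling by DESeq2 1.42.0, by total counts, or by totals without the 20 highest genes, protein-coding genes only, other filters, pseudocounts of 0.05 and 2, a 2-fold threshold and subsets of members. Amino acid sequences were not used here. Scripts ran in Python 3.11.15 (scipy 1.17.1) and R 4.3.3.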

Additional observations from a re-analysis of the deposited data

How the results depend on the processing

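No paired analysis was possible because a single pooled library stands for a group, and no library could be left out. Total counts lower a log2 ratio by 0.13 before the pseudocount is added, less for genes near 1 CPM, and the other scalings move it by at most 0.05. The counts of class I and class II members called lower were within 1.5 times of 5 and 4 in all settings, except that at 2-fold 1 class II member was lower. Called higher was 1 member of each class. At a mean of 10 CPM or at 2-fold it was 0 in both classes, and among class II chains alone it was 0. The class II summed fold of 0.505 was 0.462 with total counts, and 0.477 to 0.525 in the other settings. The class I summed fold of 0.803 was 0.733 with total counts, 0.833 without the 20 highest genes, 0.714 without H2-D1 and 0.856 without H2-Q10, the last chosen after seeing the data.

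The ratio of ratios of class I over class II of 1.59 was 1.79 for chains only, 1.496 without the most abundant member of each class and 1.53 for members with under 10% shared windows, the last chosen after seeing the data. The difference of the class medians of 0.61 on the log2 scale was 0.62 and 0.59 with pseudocounts of 0.05 and 2, 0.46 without a filter, 0.66 at 10 CPM and 0.60 for chains only. Of 72 values of the 18 named members under 4 settings, 2 changed their call (Ciita and Tapbp) and no called member turned its sign. With total counts, the genes of peptide supply called higher were 0, and those of co-stimulation 1 higher and 2 lower. Without a filter the latter list gave 2 lower. The summed fold of dendritic cell markers turned from 1.20 to 0.966 without Clec10a, and that of monocyte markers was 1.12 without Chil3 and 1.75 with it, both chosen after seeing the data. Members near 1 CPM rest on few counts, as the interval of the Ciita fold (1.13 to 4.28) shows.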
